A study of Mus musculus with 10 samples.

Results

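*Trp53* and 9 genes of its pathway, *Cdkn1a*, *Mdm2*, *Bax*, *Bbc3*, *Ccng1*, *Zmat3*, *Phlda3*, *Eda2r* and *Cdkn2a*, were followed across 10 mouse cutaneous tumors profiled by RNA-seq. They were taken by gene symbol, and all 10 were present among the 35275 genes listed for every tumor. The sample labels give 5 tumors as LDHA-/- and 5 as Wild type, called here *Ldha*-null and wild-type tumors 1 to 5. *Ldha* encodes the A subunit of lactate dehydrogenase, and the question put to the tumors was whether its loss changes gene expression in squamous carcinoma.

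In the genetic model of the study, mice carried floxed *Trp53* alleles (*p53* fl/fl) recombined in hair follicle stem cells by *K15CrePR* or *Lgr5CreER*, with floxed *Ldha* in the deletion arm. All animals shown in the study had a mixed C57BL6/FVB background. Other tumors of the study were induced by DMBA/TPA. The model behind the sequenced tumors is not stated, so it is not known whether *Trp53* was deleted in these 10 tumors. The age at harvest in the study differs between models. Some tumors of deletion mice were mosaic for *Ldha* by the study's description. The labels name squamous carcinoma cells as the source, whereas the protocol extracts RNA from fresh tumors with no sorting step. Floxed *Trp53* would be lost only in cells that had Cre, so *Trp53* RNA of carcinoma cells and of other cells in the tumor cannot be told apart. In bulk tumors, fewer cells of a type and less RNA per cell cannot be told apart either.

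*Trp53* encodes p53, a transcription factor that is kept low in resting cells by the ubiquitin ligase Mdm2 and accumulates after DNA damage or oncogene activation. It then switches on genes that stop the cell cycle, start apoptosis or shut the response off again, *Mdm2* among them. The p19Arf product of *Cdkn2a* holds Mdm2 back, and loss of this axis is common in squamous carcinoma of the skin. Much of the control of p53 acts on the protein, which was not measured.

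The stretches of promoter shown here are those in which a member has an exact match to the p53 decamer, the 10-base unit of a p53 response element. They come from RefSeq windows (GRCm38.p6, the same assembly as mm10) of 250 bases before and 50 after each annotated start, and 9 of the 10 members had a window, with 13 windows in all. No window was given for *Zmat3*. An exact decamer was found in 5 of the 13 windows and in 8.4% of all 32851 windows, the motif being read on both strands, where its consensus is the same. The capitals mark the exact decamers, and each stretch is written 5′ to 3′ on the strand of its gene.
Trp53, chr11:69580256-69580353, plus strand: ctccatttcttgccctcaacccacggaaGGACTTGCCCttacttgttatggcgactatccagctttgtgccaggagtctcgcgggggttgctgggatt
Mdm2, chr10:117710875-117711004, minus strand: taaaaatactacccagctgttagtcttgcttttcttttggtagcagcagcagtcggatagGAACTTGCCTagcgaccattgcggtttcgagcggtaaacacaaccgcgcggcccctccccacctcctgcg
Cdkn1a, chr17:29090846-29090975, plus strand: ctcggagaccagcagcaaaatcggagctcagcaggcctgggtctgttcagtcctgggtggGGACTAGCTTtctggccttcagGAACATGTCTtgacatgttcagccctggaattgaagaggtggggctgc
Ccng1, chr11:40755402-40755531, minus strand: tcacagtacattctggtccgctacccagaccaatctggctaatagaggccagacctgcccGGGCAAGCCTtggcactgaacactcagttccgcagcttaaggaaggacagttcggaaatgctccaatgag
Bax, chr7:45467030-45467148, minus strand: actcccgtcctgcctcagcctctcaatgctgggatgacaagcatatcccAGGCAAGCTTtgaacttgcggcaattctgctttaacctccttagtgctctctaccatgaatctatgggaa

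Among these, *Cdkn1a* was the only member with a window that held a pair of exact decamers, 12 bases apart. They started 73 and 51 bases before its upstream annotated start, and the window of its downstream start held 0 exact decamers. The one at 51 bases was followed directly by another decamer with 1 mismatch. *Ccng1* had 1 exact decamer directly after another with 1 mismatch, and *Bax* had a pair 5 bases apart with 2 mismatches in all. A pair of decamers at most 13 bases apart with at most 3 mismatches lay in 6 of the 13 windows of members and in 15.6% of all windows. The windows of *Phlda3*, *Eda2r* and *Cdkn2a* held neither an exact decamer nor such a pair, which says only that these letters are not in these windows. Binding of p53 was not measured.

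Total counts were 12969508 to 17694201 per tumor, and 3 tumors stood apart in tissue content. Skeletal muscle markers (*Ckm*, *Actn3*, *Pvalb* and 7 others) took 12.4% of the counts of *Ldha*-null tumor 1, where their levels summed to 112284 FPKM, and 60.03 to 391 FPKM was found in the other 9. Epithelial markers such as *Krt14* summed to 33721 FPKM (*Ldha*-null tumor 3) and 35549 FPKM (wild-type tumor 5), against 329 to 5269 FPKM elsewhere. *Krt14* alone gave 28399 and 28691 FPKM of these sums. *Krt15* did not follow, at most 61.2 FPKM in any wild-type tumor against a median of 74.3 FPKM in the *Ldha*-null tumors. Mesenchymal markers such as *Vim* were lowest in the same 3 tumors, at 524, 3518 and 5707 FPKM, against 8430 to 13809 FPKM in the other 7. None of these 30 markers was at 0 in any tumor. *Ldha* itself did not separate the labels, running from 246 to 1882 FPKM under the null label and from 340 to 2824 FPKM under the other, so a genotype below is that of the label.

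Levels of the members spanned a wide range. FPKM, fragments scaled to the length of the gene and to all counts of the tumor, allows genes to be compared per length. By median over the 10 tumors the order was *Cdkn2a* (723 FPKM), *Phlda3* (163), *Bax* (142), *Cdkn1a* (46.7), *Mdm2* (31.4), *Ccng1* (25.9), *Bbc3* (15.1), *Trp53* (14.9), *Zmat3* (4.10) and *Eda2r* (1.40). Neighbours in this order changed places in some tumors in every case but 1: *Trp53* exceeded *Zmat3* in 10 of 10 tumors, whereas *Bbc3* exceeded *Trp53*, *Phlda3* exceeded *Bax* and *Mdm2* exceeded *Ccng1* in 6 each. The transcription factor thus stood below 7 of its 9 partners per length of transcript in the median tumor.

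**Figure D1:**
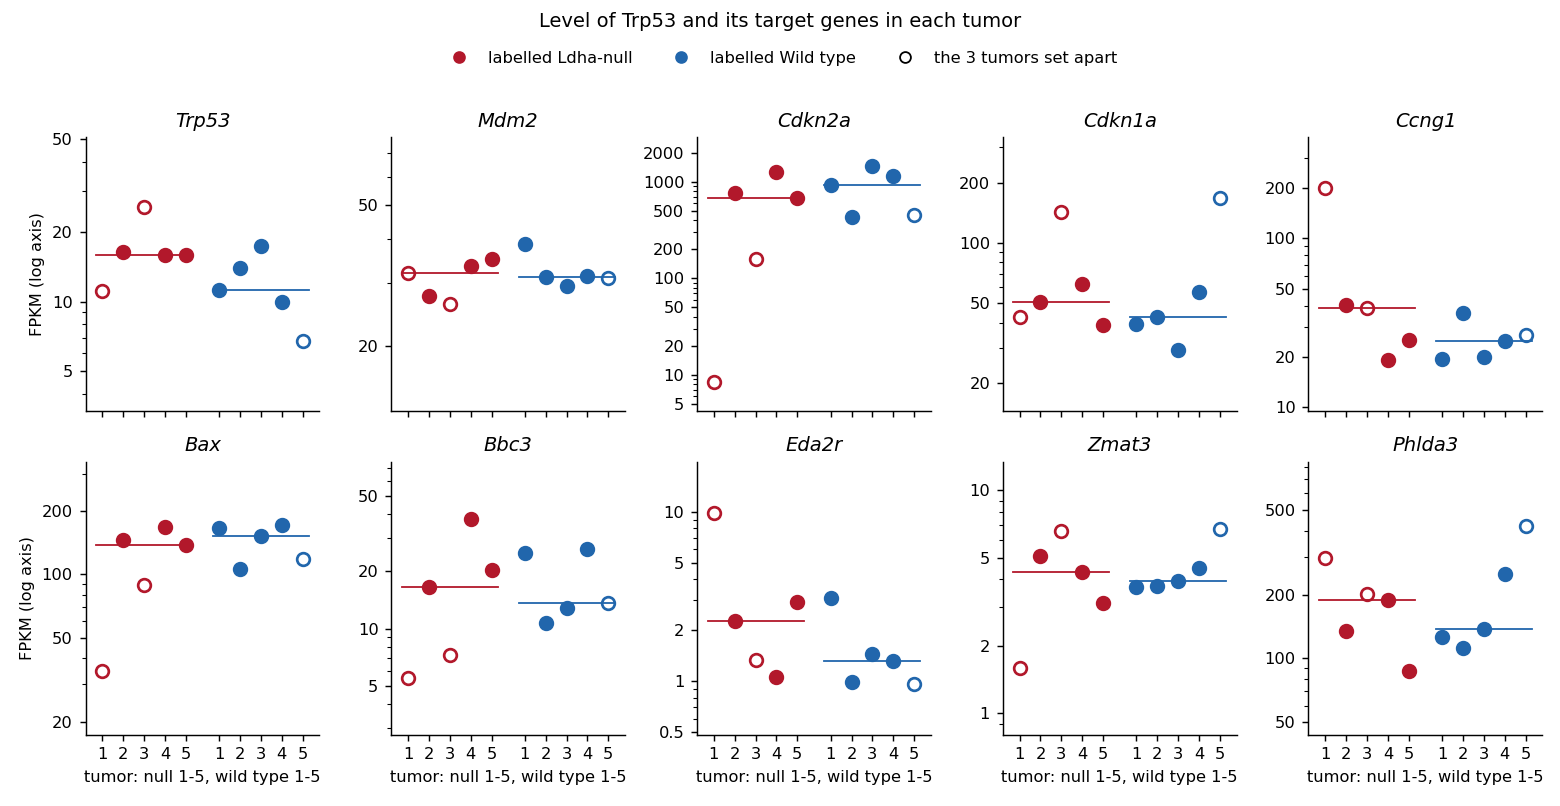
FPKM (log axis) of each member in the 5 tumors labelled *Ldha*-null (red) and the 5 labelled wild type (blue), with lines at the group medians. Open circles are the 3 tumors set apart on the first principal component of all other genes. The groups overlap for all 10 genes, and the most distant points (*Ccng1*, *Eda2r* and *Cdkn2a* in *Ldha*-null tumor 1, *Cdkn1a* in *Ldha*-null tumor 3 and wild-type tumor 5) are open circles.

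*Trp53*, on chromosome 11 (69580359 to 69591873, plus strand, mm10), was detected in every tumor. In *Ldha*-null tumors 1 to 5, in that order, it had 11.1, 16.3, 25.4, 15.9 and 15.8 FPKM. Wild-type tumors 1 to 5 had 11.2, 14.01, 17.4, 9.98 and 6.79 FPKM. The highest value belonged to *Ldha*-null tumor 3 and the lowest to wild-type tumor 5, the pair of tumors with the highest summed epithelial markers, and the groups overlapped. These values rest on 185 to 696 counted fragments per tumor. *Wrap53*, the nearest gene, begins 104 bases away on the opposite strand and the spans of the pair do not overlap, although nothing in the protocol says that strand was kept. *Wrap53* ran from 6.47 to 16.1 FPKM and was not at its highest in *Ldha*-null tumor 3 (10.3 FPKM) or at its lowest in wild-type tumor 5 (14.2 FPKM).

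*Mdm2*, whose product marks p53 for destruction, was the steadiest member. *Ldha*-null tumors 1 to 5 had 32.1, 27.7, 26.2, 33.6 and 35.1 FPKM. The wild-type tumors had 38.7, 31.3, 29.5, 31.5 and 31.0 FPKM. Over the 7 tumors that were not set apart, its coefficient of variation was 10.01% after scaling for composition, where the median of all 15176 tested genes was 28.4%.

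*Cdkn2a* had the highest and the most uneven level. Its 2 annotated transcripts start 12461 bases apart on chromosome 4, the upstream start giving p19Arf, which inhibits Mdm2, and the downstream start p16Ink4a, which inhibits the kinases Cdk4 and Cdk6. The counts are per gene and do not separate them. In *Ldha*-null tumors 1 to 5 the level was 8.48, 767, 158, 1254 and 679 FPKM. In wild-type tumors 1 to 5 it was 932, 430, 1438, 1151 and 457 FPKM. The muscle-rich *Ldha*-null tumor 1 was by far the lowest and *Ldha*-null tumor 3 came next, while the other 8 lay between 430 and 1438 FPKM in both groups.

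*Cdkn1a* encodes p21, the inhibitor of cyclin-dependent kinases through which p53 halts the cell cycle. *Ldha*-null tumors 1 to 5 held 42.5, 50.6, 142.5, 62.6 and 39.1 FPKM of it. Wild-type tumors 1 to 5 held 39.2, 42.9, 29.1, 57.1 and 167.9 FPKM. *Ldha*-null tumor 3 and wild-type tumor 5 were the highest, although *Trp53* was at its highest in the first and at its lowest in the second. The other 8 tumors lay within 29.1 to 62.6 FPKM.

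*Ccng1*, encoding cyclin G1, which takes part in the feedback between p53 and Mdm2, was high in a single tumor. *Ldha*-null tumor 1 reached 198 FPKM, and *Ldha*-null tumors 2 to 5 had 40.3, 38.8, 19.2 and 25.1 FPKM. Wild-type tumors 1 to 5 had 19.3, 36.4, 19.97, 24.7 and 26.7 FPKM. Without that tumor the groups shared nearly the same range.

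*Bax* and *Bbc3* encode proteins of the mitochondrial route to apoptosis, Bax as a pore former and Puma, the product of *Bbc3*, as an activator of it. *Ldha*-null tumor 1 had the least *Bax* at 34.6 FPKM, and *Ldha*-null tumors 2 to 5 had 146, 89.1, 169 and 138 FPKM. In wild-type tumors 1 to 5 it had 166, 106, 152, 171.5 and 118 FPKM. *Bbc3* had its lowest values in the same *Ldha*-null tumors 1 and 3 (5.53 and 7.27 FPKM) and its highest in *Ldha*-null tumor 4 (37.7 FPKM), with 10.7 to 26.3 FPKM in the wild-type tumors.

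*Eda2r*, a receptor of the tumor necrosis factor receptor family that binds ectodysplasin A2, was the scarcest member. *Ldha*-null tumor 1 had 9.89 FPKM, and 2.26, 1.34, 1.06 and 2.95 FPKM were found in tumors 2 to 5 of that label. The wild-type tumors had 3.11, 0.986, 1.45, 1.31 and 0.966 FPKM. As for *Ccng1*, the muscle-rich tumor was highest and the other 9 overlapped.

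*Zmat3* encodes a zinc finger protein that binds RNA, and *Phlda3* a pleckstrin homology protein that restrains Akt. *Zmat3* was highest in wild-type tumor 5 (6.72 FPKM) and *Ldha*-null tumor 3 (6.58 FPKM) and lowest in *Ldha*-null tumor 1 (1.60 FPKM), with 3.13 to 5.08 FPKM elsewhere. For *Phlda3*, *Ldha*-null tumors 1 to 5 had 298, 135, 202, 189 and 87.4 FPKM. Wild-type tumors 1 to 5 had 126, 111, 138, 249 and 422 FPKM. Wild-type tumor 5 and *Ldha*-null tumor 1 were the highest for *Phlda3*, so both groups held a high tumor.

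FPKM is relative to all counts of a tumor, so transcripts that take a large share in 1 tumor lower the FPKM of the others there. On CPM, counts over the library total, scaled by TMM, which corrects for such composition, the factor of *Ldha*-null tumor 1 was 0.589 against 0.881 to 1.20 in the other 9. *Trp53* in that tumor moved from within the range of the 7 tumors on FPKM (11.1 against 9.98 to 17.4) to above it on scaled CPM (34.3 against 17.5 to 29.1). *Mdm2* moved likewise, from 32.1 FPKM against 27.7 to 38.7 to a scaled CPM of 91.6 against 42.6 to 58.1.

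The same comparison set out what the 3 tumors shared. *Cdkn1a* was above the range of the 7 tumors (31.5 to 66.4 scaled CPM) in all 3, at 84.6 in *Ldha*-null tumor 1, 190 in *Ldha*-null tumor 3 and 208 in wild-type tumor 5. In *Ldha*-null tumor 1 this appeared only after scaling, as its 42.5 FPKM lay within the range of the 7 (29.1 to 62.6 FPKM). *Trp53* was above the range in *Ldha*-null tumors 1 and 3 (1.44 and 2.20 times the median of the 7) and below it in wild-type tumor 5 (0.546 times). *Ldha*-null tumor 1 had 16.1 times the median for *Ccng1*, 12.5 times for *Eda2r* and 4.11 times for *Phlda3*, but 0.0173 times for *Cdkn2a* and 0.420 times for *Bax*. *Zmat3* was about as far above the median in *Ldha*-null tumor 3 (2.07 times) as in wild-type tumor 5 (1.97 times), and *Cdkn2a* was below the range in *Ldha*-null tumor 3 (0.216 times) and within it in wild-type tumor 5 (0.580 times). The high *Ccng1* and *Eda2r* thus stood in the library with the muscle markers, and the low *Cdkn2a* in those with the fewest mesenchymal transcripts. The part of tissue content in these levels was not tested.

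**Figure D2:**
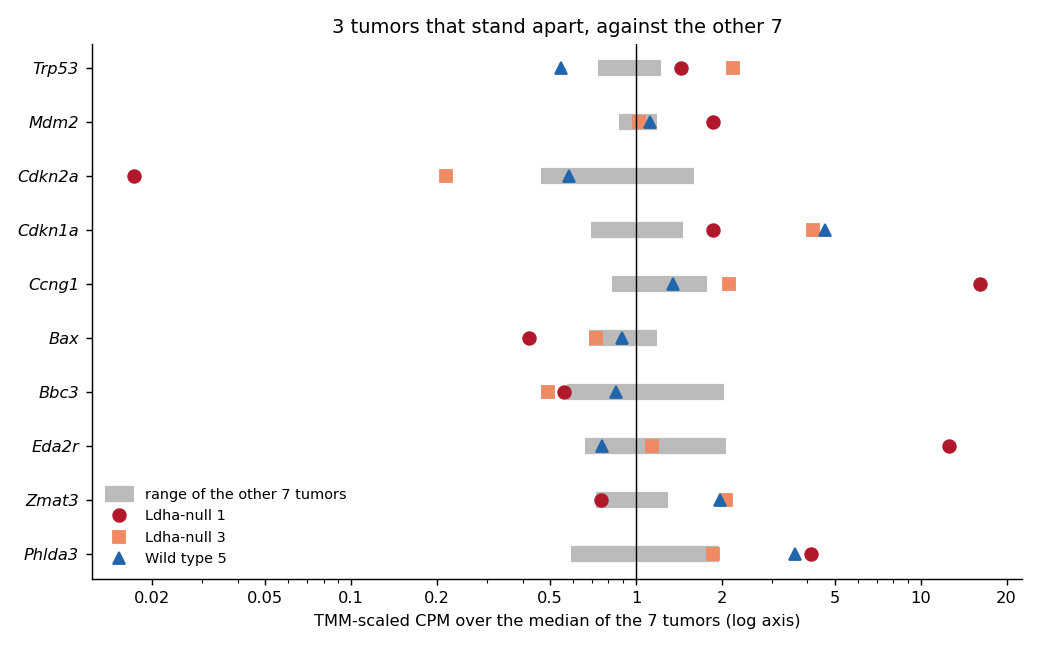
TMM-scaled CPM of each member in the 3 tumors set apart, divided by the median of the other 7 tumors (log axis), with grey bars for the range of those 7. *Cdkn1a* is to the right of the bar in all 3 tumors, while *Trp53* is to the right in *Ldha*-null tumors 1 and 3 and to the left in wild-type tumor 5. On FPKM, *Cdkn1a* and *Trp53* in *Ldha*-null tumor 1 lay within the range of the 7.

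The genotypes were then compared on the counts. No member passed the test: 0 of 10 had an adjusted p under 0.05 with edgeR's quasi-likelihood test, where 0.0% of the 15176 tested genes did, and DESeq2 and limma-voom called none of the members either. The adjusted p was 0.999 for each of them. At an unadjusted p under 0.05 there were 2 members, *Trp53* and *Ccng1*, where 3.96% of all tested genes were (541 higher and 60 lower in *Ldha*-null tumors). By DESeq2 1 member (*Trp53*) and by limma-voom none was under that value. Log2 fold changes were above 0 for 7 members and below 0 for 3, with a median of 0.13 against 0.025 over all tested genes. The groups overlapped for every member, as they did for all but 28 of the 15176 tested genes.

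Mean *Trp53* was 16.9 ± 5.21 FPKM under the *Ldha*-null label and 11.9 ± 4.03 FPKM under the wild-type label (SD, n = 5 each). The log2 fold change was 0.71 (SE 0.30, 95% interval 0.049 to 1.37, unadjusted p = 0.0375 and adjusted p = 0.999 in edgeR). It was 0.47 without *Ldha*-null tumor 3 and 0.22 (-0.31 to 0.75) over the 7 tumors.

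Mean *Ccng1* was 64.3 ± 75.4 FPKM against 25.4 ± 6.89 FPKM, *Ldha*-null first (SD, n = 5 each). Its log2 fold change was 1.94 (SE 0.79, interval 0.19 to 3.69, unadjusted p = 0.0331 and adjusted p = 0.999 in edgeR) and 0.31 without *Ldha*-null tumor 1. For *Eda2r* the values were 1.71 (interval -0.021 to 3.45) with that tumor and 0.25 without it. Both differences rest on the muscle-rich library.

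For the regulators, the log2 fold change was 0.15 for *Mdm2* (interval -0.37 to 0.67) and -0.67 for *Cdkn2a* (-2.46 to 1.12). Without *Ldha*-null tumor 1 *Mdm2* came to -0.097 and *Cdkn2a* to -0.36. Of the remaining targets, *Cdkn1a* had 0.15 (-1.14 to 1.45), *Bax* -0.26 (-0.86 to 0.33) and *Bbc3* 0.0073 (-0.95 to 0.96). *Zmat3* had -0.020 (-0.79 to 0.75) and *Phlda3* 0.11 (-1.15 to 1.38). The value for *Cdkn1a* was -0.36 when *Ldha*-null tumor 3 was left out and 0.93 when wild-type tumor 5 was, and that for *Phlda3* was -0.46 when *Ldha*-null tumor 1 was left out and 0.58 when wild-type tumor 5 was, so single libraries set the sign of both, as they did for *Mdm2*. *Bax* came to -0.11 without *Ldha*-null tumor 1 and *Bbc3* to -0.42 without *Ldha*-null tumor 4. *Zmat3* came to -0.32 when *Ldha*-null tumor 3 was dropped and to 0.23 when wild-type tumor 5 was. The interval lay within a 2-fold change in either direction for 4 members, *Mdm2*, *Bax*, *Bbc3* and *Zmat3*. For the other 6 the interval reached beyond a change of that size.

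**Figure D3:**
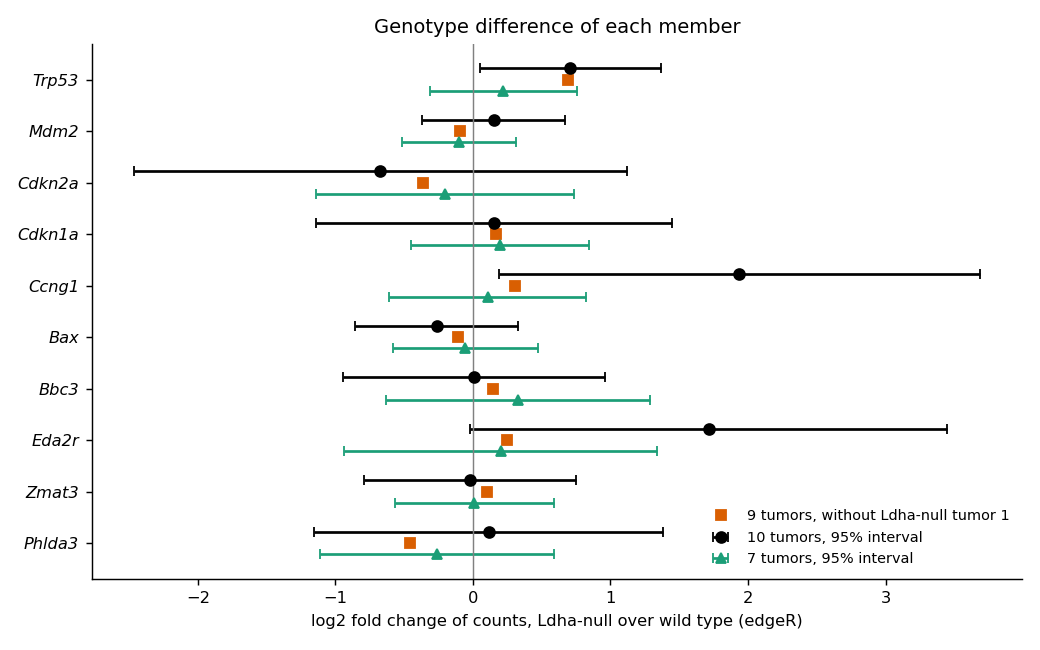
Log2 fold change of counts, *Ldha*-null over wild type (edgeR), for each member over all 10 tumors (black circles, 95% intervals), without *Ldha*-null tumor 1 (orange squares) and over the 7 tumors (green triangles, 95% intervals). *Ccng1* and *Eda2r* move from 1.94 and 1.71 to 0.31 and 0.25 once *Ldha*-null tumor 1 is left out, and every interval of the 7 tumors includes 0.

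Further p53 targets, 56 genes in 4 lists, were read from the same test. Of these 54 could be tested and 0 passed. At an unadjusted p under 0.05 there were 2, both higher in *Ldha*-null tumors, where 3.96% of all tested genes were (541 higher and 60 lower). Fold changes were above 0 for 26 and below 0 for 28, with a median log2 fold change of -0.025 against 0.025 for all tested genes. Not tested were *Trp53cor1*, with at most 16 counts in a tumor, and *Sco2*, listed at 0 in all.

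Among targets of apoptosis, 16 of 16 were tested, with 8 above and 8 below 0 and a median of 0.043. *Ei24*, a membrane protein of the endoplasmic reticulum, had a log2 fold change of 0.71 (interval 0.075 to 1.35, unadjusted p = 0.0318 in edgeR), with means of 47.7 FPKM (*Ldha*-null) and 34.03 FPKM (wild type), and 0.34 over the 7 tumors. *Rps27l*, *Triap1* and *Siva1* followed by p, at 0.71, 0.57 and 0.46, and all 3 had intervals that included 0. Without *Ldha*-null tumor 1 they came to 0.26, 0.29 and 0.051, and *Ei24* to 0.53.

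Of the 14 tested targets of the cell cycle and feedback group, 7 lay on each side of 0, with a median of 0.0090. *Ccng2*, a relative of cyclin G1, had the smallest p at -0.43 (interval -0.91 to 0.036). *Psrc1* came next at 1.24 (-0.15 to 2.63), followed by *Btg2*, an antiproliferative cofactor, at 0.45 and *Sesn1*, a stress-induced inhibitor of mTORC1 signalling, at 0.53, which was 0.16 without *Ldha*-null tumor 1. *Psrc1* was 0.61 over the 7 tumors.

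The 9 targets of DNA repair and nucleotide supply had a median of 0.26 over the 10 tumors, 0.081 without *Ldha*-null tumor 1 and -0.081 over the 7 tumors. *Dcxr* (-0.34), *Ercc5* (0.31), *Rrm2b*, a subunit of ribonucleotide reductase (0.51), and *Xpc*, which detects DNA damage (0.33), had the smallest p, with 0 inside each interval. Without *Ldha*-null tumor 1 *Rrm2b* turned to -0.098, and *Ercc5* and *Xpc* came to 0.15 and 0.13. Of 15 tested targets of metabolism and secretion, 11 lay below 0, with a median of -0.19. *Ptp4a3*, a phosphatase, ran from 10.4 to 20.7 FPKM in 9 tumors, while *Ldha*-null tumor 1 had 314 FPKM. Its log2 fold change was 3.15 with that tumor (unadjusted p = 0.0174 in edgeR) and 0.26 without it. *Tigar*, which lowers glycolytic flux, went from 2.31 to -0.29 and *Ak1*, an adenylate kinase, from 1.84 to -0.36 in the same way, and *Abhd4* had -0.50 (-1.04 to 0.036).

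Genes that act on p53 from upstream, 21 kinases and regulators, had 0 under an unadjusted p of 0.05, with 10 above and 11 below 0 and a median of -0.0060. *Atm* and *Atr*, the kinases that signal DNA damage to p53, came to 1.03 (interval -0.033 to 2.10) and 0.65 (-0.051 to 1.35), followed by *Bmi1*, a repressor of *Cdkn2a*, at 0.40 and *Twist1* at -0.69. The last 2 were 0.17 and -0.44 without *Ldha*-null tumor 1. The 16 cell cycle genes that are repressed through *Cdkn1a* also had 0 under that p and a median of -0.028, which was 0.15 without *Ldha*-null tumor 1 and 0.23 over the 7 tumors. *Cdc20*, *Mki67*, *E2f1* and *Aurkb* had the smallest p of that list, at -0.53, 0.44, -0.27 and -0.28. Over the 7 tumors these were 0.27, 0.54, 0.12 and 0.015, so 3 of the 4 changed sign. Among 7 inhibitors of cyclin-dependent kinases, *Cdkn1c* stood at 1.61 over the 10 tumors and at -0.83 without *Ldha*-null tumor 1, while *Cdkn2c* had -0.24 and *Cdkn2d* 0.24, which were -0.14 and -0.0060 without that tumor.

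**Figure D4:**
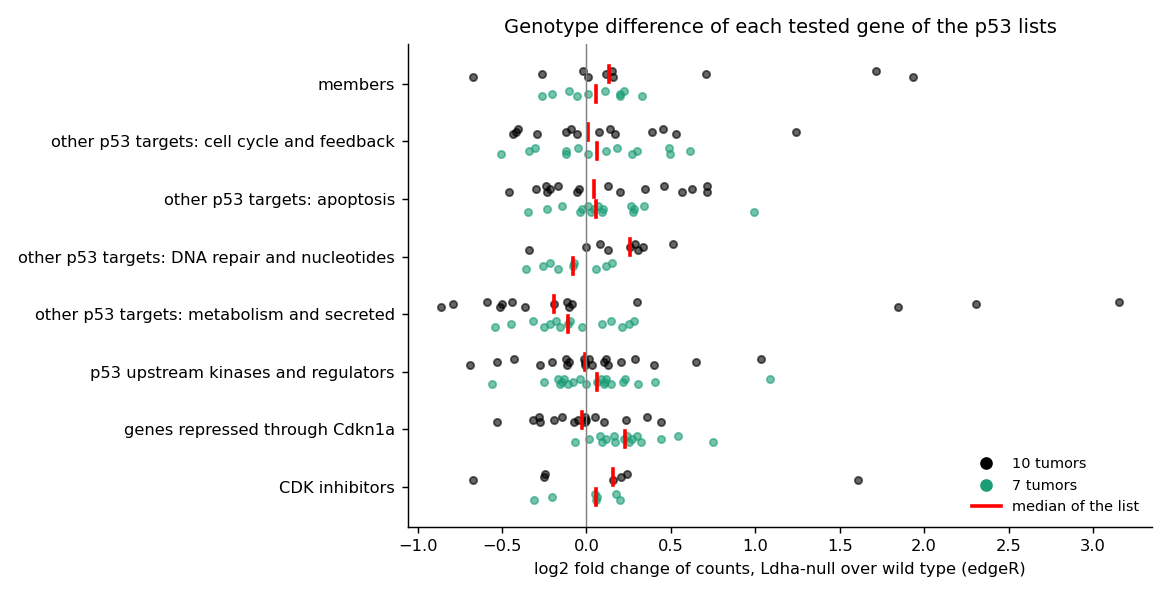
Log2 fold change (*Ldha*-null over wild type, edgeR) of each tested gene of the members, of the 4 lists of other p53 targets, of upstream regulators, of genes repressed through *Cdkn1a* and of inhibitors of cyclin-dependent kinases, over all 10 tumors (black) and over the 7 tumors (green), with red bars at the list medians. The list medians lie between -0.19 and 0.26 in both sets, and the 6 genes beyond 1.5 in the set of 10 tumors lie between -0.31 and 0.20 in the set of 7.

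Covariation of the members was measured over the 7 tumors that were not set apart, 3 labelled *Ldha*-null and 4 wild type, as log2 CPM. Of the 45 pairs 28 had a positive and 17 a negative Pearson's r, with a median of 0.12. No pair passed after adjustment (smallest adjusted p = 0.259), and 3 had an unadjusted p under 0.05 by exact permutation over the 5040 orders of the tumors, two-sided.

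*Bax* and *Cdkn2a* had the highest r of the 45 pairs, 0.89 (exact permutation p = 0.00575, adjusted 0.259), and Spearman's rho was 0.75 (exact permutation p = 0.0663, adjusted 0.497). Leaving out each tumor in turn gave r from 0.75 to 0.98. Without the 2 tumors farthest from the median of *Bax* r was 0.43. That step narrows the range of *Bax*, so the drop does not tell whether the relation rested on those tumors. *Zmat3* and *Phlda3* had r = 0.78 and rho = 0.75 (exact permutation p = 0.0415 and 0.0663), with 0.98 left after the same step. *Bax* and *Bbc3*, the apoptosis genes, had r = 0.77 and rho = 0.82 (exact permutation p = 0.0421 and 0.0341), with 0.73 left. After adjustment the p for r was 0.463 in both.

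*Trp53* had no relation with another member that passed the test. Its r was negative with 6 of the 9 other members, with a median of -0.27, where the median with all tested genes was 0.044. The lowest was with *Mdm2*, r = -0.75 and rho = -0.79 (exact permutation p = 0.0510 and 0.0480, adjusted 0.463 and 0.497), and it was -0.44 without the 2 farthest tumors. With *Cdkn1a* it was -0.27 (exact permutation p = 0.535). Over the 54 other p53 targets the median r with *Trp53* was 0.086, with 32 positive.

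*Cdkn1a* had a positive r with 7 of the 9 other members, the highest being 0.70 with *Phlda3* and 0.65 with *Bbc3*. It was negative with 15 of the 16 genes that are repressed through it, with a median of -0.53 where all tested genes had -0.035. *Cdkn2a* gave a like picture, negative with 15 of 16 and a median of -0.71 against -0.053 for all tested genes. *Trp53* was positive with 15 of these 16, with a median of 0.23. The 16 genes are measured in the same 7 libraries and move together in proliferating cells, so they are no independent points. Against their mean log2 CPM, *Cdkn1a* had r = -0.57 and *Cdkn2a* -0.71 (exact permutation p = 0.193 and 0.0833). *Phlda3* (-0.87), *Bax* (-0.70) and *Bbc3* (-0.68) also lay lower than *Cdkn1a*, so a negative r was not particular to it. *Zmat3* and *Mdm2* were nearer to 0, and *Trp53*, *Ccng1* and *Eda2r* were positive.

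**Figure D5:**
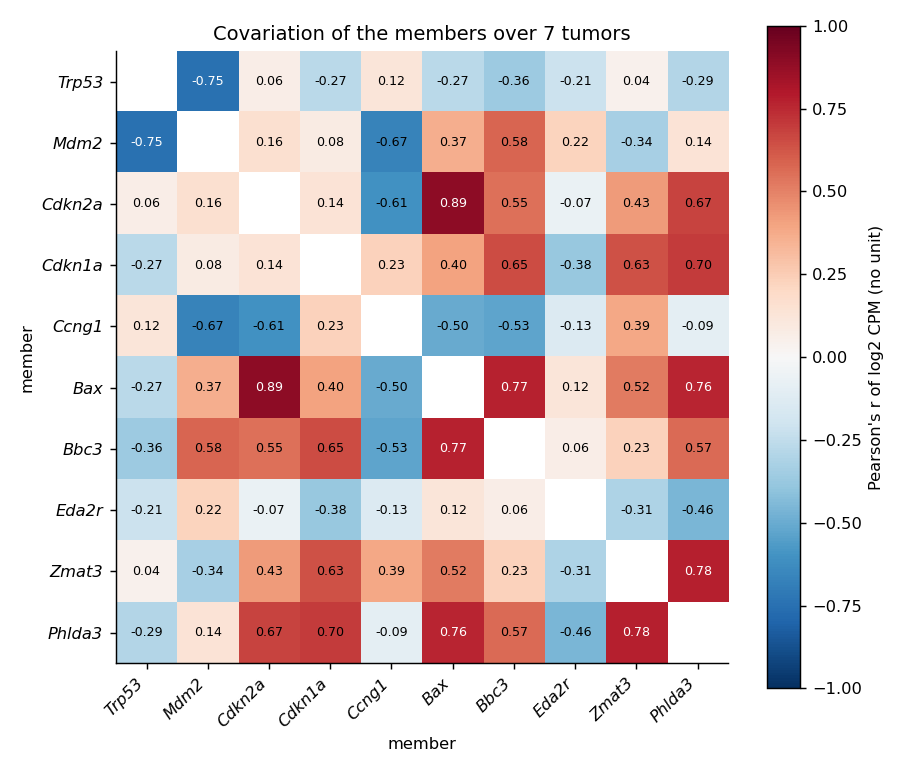
Pearson's r of log2 CPM (no unit) for each pair of members over the 7 tumors, red for positive and blue for negative values. *Bax* with *Cdkn2a* is the highest at 0.89, *Trp53* with *Mdm2* the lowest at -0.75, and the row of *Trp53* is mostly blue.

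The members were also compared with tissue content within the 7 tumors. Each was set against the mean log2 CPM of the epithelial, mesenchymal, leukocyte and endothelial markers and of the genes repressed through *Cdkn1a*, 50 relations in all. Of these 8 had an unadjusted p under 0.05 and 0 passed after adjustment (smallest 0.149). *Phlda3* had the highest r, with the mesenchymal markers, at r = 0.93 and rho = 0.82 (exact permutation p = 0.00318 and 0.0341). *Cdkn1a* followed with these markers at r = 0.89 and rho = 0.86 (exact permutation p = 0.00893 and 0.0238). Without the 2 farthest tumors 0.74 and 0.99 were left. Taken singly, only 6 of the 10 mesenchymal markers had a positive r with *Cdkn1a*, and r ran from -0.41 to 0.90. *Zmat3* had r = 0.84 with the mean of the mesenchymal markers and *Bax* had -0.77 with both epithelial and leukocyte markers. *Phlda3* had r = -0.87 with the genes repressed through *Cdkn1a* (exact permutation p = 0.00833). *Trp53* had 0.60 with epithelial and 0.62 with leukocyte markers (exact permutation p = 0.150 and 0.138), and these were -0.87 and -0.72 without the 2 farthest tumors. The pairs named here were picked after their values were seen.

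The genes whose log2 CPM was most like that of *Trp53* over the 7 tumors, of 9945 with a mean of at least 5 FPKM, were *Lztr1* (r = 0.98), *Arhgap4* (0.97), *Tcirg1* (0.96), *B430306N03Rik* (0.95) and *AU020206* (0.95). For *Cdkn1a* they were *Fndc1* (0.99), *Hk1* (0.97), *Ctla2a* (0.97), *Mavs* (0.97) and *Cds2* (0.97). None of these 10 genes is on the lists of p53 targets used here. They were the closest of many genes over few tumors and carry no test.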

How the data were processed

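RNA-seq of 10 mouse tumors was used, grouped by the genotype in the labels. Per the labels and the study's methods, the authors called bases with CASAVA 1.8, removed low-quality reads, aligned to mm10 with TopHat2 (mismatch setting 2) and counted with HTSeq in union mode. The deposited counts are whole fragments per gene, and the deposited FPKM values were computed by the authors from those counts, total counts and a gene length that differs from the listed one for 9 of the 10 members but was the same in all tumors. For TopHat2, HTSeq and the annotation, the version is not given in the sources used here. Of the columns of values 0 were left unmapped. Identifiers matched the reference gene table for 97.8% of genes and for all 10 members, and no other gene's span overlapped a member's.

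Counts were analysed in R 4.3.3 with edgeR 4.0.16: filterByExpr (minimum count 10, minimum total 15) kept 15176 genes, TMM scaled them, and the quasi-likelihood test compared the labels with no covariate, with Benjamini-Hochberg adjustment over all tested genes at 0.05 and 95% intervals. Log2 CPM used a prior count of 2. The biological coefficient of variation was 63.4%, so the spread between tumors, not depth, limited the precision. The study speaks of littermate pairs, but no label ties a tumor to a litter or batch. The edgeR and permutation tests were tried on simulated data. The 7 tumors were to be taken from 1 side of the largest gap of the first principal component of all other genes. That gap set only *Ldha*-null tumor 1 apart, so the step was repeated on the remaining 9 tumors, which set *Ldha*-null tumor 3 and wild-type tumor 5 apart. The wild-type and null tumors were too few for correlations within a genotype.

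Members, lists and tests were chosen with earlier results of these data known. Named were all members, up to 4 genes of each list by p, and the 5 genes most like *Trp53* and *Cdkn1a*. A change of sign was called a reversal only for a value that had passed the test. Alternatives were DESeq2 1.42.0, limma-voom (limma 3.58.1), RLE factors, other filters, the tumor number as a block, log2(FPKM + 0.1) and leaving out tumors. Promoters were taken from RefSeq (GRCm38.p6) and transcripts from GENCODE. Protein sequences were not used here, and not every allele of the mouse model is reported here.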

Additional observations from a re-analysis of the deposited data

Results flagged for a closer look

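*Mdm2* in *Ldha*-null tumor 1 lay far from the other 4 *Ldha*-null tumors in log2 CPM, with a gap to its neighbour of 0.768 of the group's range, where 0.71 is the limit for 5 values. Its FPKM of 32.09 lay inside the range of the other 4 (26.2 to 35.1 FPKM), so the distance appears only after scaling for composition. It was 1 of 20 groups of 5 tumors examined, and chance gives about 1 in 20.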

How the results depend on the processing

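No member passed the test under any of the alternatives, and over all genes the count of 0 held under all but DESeq2, which called 1 gene (*G0s2*, no member, named after its value was seen). Of 170 alternative values of the members, 146 kept their sign and 24 changed it without ever passing the test, in *Cdkn1a*, *Mdm2*, *Bbc3*, *Zmat3* and *Phlda3*; among genes of the lists 37 of 814 did. Leaving out 1 tumor at a time gave 0 calls each time, and 194 to 1090 genes at an unadjusted p under 0.05. With log2(FPKM + 0.1), 0 pairs of members passed. None passed without the 2 farthest tumors or without any 1 tumor either. Those sets have too few orders of tumors for a single pair to pass after adjustment over 45 pairs, so this outcome decides nothing. In the 9 tumors on 1 side of the largest gap, 4 pairs passed: *Cdkn1a* with *Zmat3* (r = 0.93) and *Phlda3* (0.85), *Zmat3* with *Phlda3* (0.86) and *Bax* with *Cdkn2a* (0.86). The gap rule as first set gives these 9, and the step from 9 to 7 tumors was an addition to it. The pairs over 9 tumors were examined after seeing the data. The r over 9 tumors include *Ldha*-null tumor 3 and wild-type tumor 5, which stand apart from the other 7.

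The tumor number did not pair the samples: the correlation of deviations between same-numbered tumors was -0.045, 0.064, -0.27, 0.55 and -0.51 for numbers 1 to 5, and 1 of 5 correlated best with its own number. With the number as a replicate block 0 genes and 0 members passed, 120 genes had an unadjusted p under 0.05, and the log2 fold change was 0.70 for *Trp53*, 0.78 for *Ccng1*, 0.98 for *Eda2r*, -1.18 for *Cdkn2a* and -0.077 for *Bbc3*, whose sign changed.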

Other observations

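Several further genes of the p53 network stood in the epithelium-rich tumors of both labels. *Perp*, a desmosomal p53 target, had 1838 FPKM (*Ldha*-null tumor 3) and 1376 FPKM (wild-type tumor 5), against 45.5 to 215 FPKM in the other 8. *Sfn*, which encodes 14-3-3 sigma of keratinocytes, had 1169 and 1751 FPKM in the same tumors and 27.9 to 221 FPKM elsewhere. *Trp63*, the family member of basal epithelium, had 70.6 and 65.7 FPKM there and 1.06 to 13.4 FPKM elsewhere, and *Trp73* 9.19 and 22.7 FPKM against 0.254 to 1.97 FPKM. *Trp63* is itself among the epithelial markers summed for these tumors, so its high level there adds no separate observation. *Pmaip1*, encoding Noxa, was also highest in both, at 12.3 and 11.3 FPKM against 1.06 to 6.78 FPKM. *Trp53* itself was at opposite ends in these tumors. These genes were picked after their values were seen and carry no test.

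*Cdkn2b*, the neighbouring inhibitor of Cdk4 and Cdk6, shared the low value of *Cdkn2a* in the muscle-rich *Ldha*-null tumor 1, at 3.05 FPKM against 24.4 to 87.7 FPKM in the other 9, and *Ldha*-null tumor 3 was the next lowest for both.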
